A study of Saccharomyces cerevisiae with 12 samples.

Results

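The C403A by MMS interaction is, for each gene, the response of the C403A strain to methyl methanesulfonate (MMS) minus the response of wild type. On the log2 scale it is (C403A with MMS minus C403A untreated) minus (wild type with MMS minus wild type untreated). A negative value means that the level in C403A ended lower, relative to where it started, than in wild type. It was computed from 8 of the 12 arrays of the study, 2 in each of 4 groups, and fitted for 5368 genes, with the other 4 arrays adding to the estimate of the spread. Genes that already differed between the strains before treatment were then separated from genes that responded differently.

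The organism was the budding yeast Saccharomyces cerevisiae, and its total RNA was hybridized to Affymetrix expression arrays read in 1 colour. The groups used were wild type untreated, wild type with MMS, the TFIIH mutant C403A untreated and C403A with MMS, together with a second TFIIH mutant, C406A, untreated and with MMS. Treated cells had received 0.03% MMS for 30 minutes. No strain background, culture medium, further allele or mutated subunit is given in the labels. The study is known to have placed both substitutions in the RING finger of its subunit Ssl1. Whether the 2 arrays of a group stand for 2 cultures is not stated, so every p-value here rests on a spread between samples that may be technical.

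TFIIH opens the DNA at promoters so that RNA polymerase II can start, and the same complex opens DNA around lesions during nucleotide excision repair. MMS methylates DNA bases, and yeast answers it by inducing repair genes, ribonucleotide reductase and the proteasome. It also raises the general stress genes under the transcription factors Msn2 and Msn4 and lowers the genes that build ribosomes. An interaction asks whether a mutant makes this answer with a different size. Whether it starts from a different point is asked by the comparison of untreated strains.

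Levels below are quantile-normalized intensities, with a floor of 34.5 under which no level is told apart. Differences are log2 values ± the standard error of the limma contrast, and adjusted p is from the same limma fit with Benjamini-Hochberg adjustment over all tested genes. A gene passed at an adjusted p under 0.05. Array medians as deposited ran from 184 to 310.2, replicate arrays correlated across genes with r between 0.985 and 0.993 (genes are not independent replicates). Precision is limited by the number of arrays. Signal of the ribosomal RNA control probes was 1775 on untreated C403A array 2 and 650.8 on untreated wild-type array 2, against 53.7 to 342.9 on the others. The strains were scanned one after the other, and within each strain the untreated arrays were scanned before the MMS arrays. Strain, MMS response and interaction therefore cannot be told apart from scan order. The labels give no mating type. Over the 12 arrays the 7 MATa genes measured had levels of 2001 to 3069 (STE2), 790 to 1288 (STE6), 4083 to 5468 (MFA1), 4951 to 7449 (MFA2), 760 to 1749 (BAR1), 2326 to 2728 (AGA2) and 198 to 377 (ASG7). The 4 MATalpha genes had levels of 125 to 213 (STE3), 202 to 393 (MF(ALPHA)1), 248 to 754 (MF(ALPHA)2) and 274 to 383 (SAG1), so none of either list was at the floor. In total RNA of a culture, fewer cells expressing a gene and less RNA per cell cannot be told apart.

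In 48 of the 53 genes whose MMS responses differed, the C403A response was the smaller one, but in 7 of 19 without C403A MMS array 2 and in 3 of 8 without both arrays of high ribosomal RNA signal. The interaction passed for 53 of 5368 genes (0.987%), with 17 higher (0.317%) and 36 lower (0.671%), and 871 genes had an unadjusted p under 0.05. The median interaction over all tested genes was -0.03. Of the 36 lower genes, 33 had risen in wild type and rose less, or did not pass, in C403A. Of the 17 higher genes, 15 had fallen in wild type and fell less, or did not pass, in C403A. In 4 genes the responses passed in opposite directions, ADH5, RTA1, BAP3 and MF(ALPHA)2, and in 1 gene, PPT2, the C403A response was the stronger one. Median responses of the 36 lower genes were 1.03 in wild type, 0.13 in C403A and 0.74 in C406A, and those of the 17 higher genes were -0.93, -0.11 and -0.56. The wild-type and C403A medians both belong to the values that selected the genes and are given as a description. C406A levels are not part of the interaction.

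The count of 53 rests heavily on single arrays. It fell to 2 without wild-type MMS array 1, and with wild-type untreated array 1 or 2 left out it was 9 and 20. Without C403A MMS array 1 or 2 it was 17 and 19, and without C403A untreated array 2 it was 30. It was 52 without wild-type MMS array 2, 24 of them among the 53, and 91 without C403A untreated array 1, 46 of them among the 53. RTC2 and ADH5 passed in all 8 of these refits, 51 genes lost the call in at least 1 (adjusted p at most 0.147, limma), and 14 of the 53 passed in at least 4. In the same refits 0 of the 53 values changed sign or moved by over 1.5 times, which their selection on these arrays favours. The fit without both arrays of high ribosomal RNA signal called 8 genes, 2 of them (RTC2 and ADH5) among the 53, and the fit of the 8 arrays alone called RTC2 only. As deposited and after scaling to hybridization controls 2 genes passed, all lower, so that 100% of calls were lower against 67.9% here. That share was 37.5% of the 8 calls without both arrays of high ribosomal RNA signal, 38.5% of 52 without wild-type MMS array 2, 43.3% of 30 without C403A untreated array 2 and 84.2% of 19 without C403A MMS array 2.

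**Figure D1:**
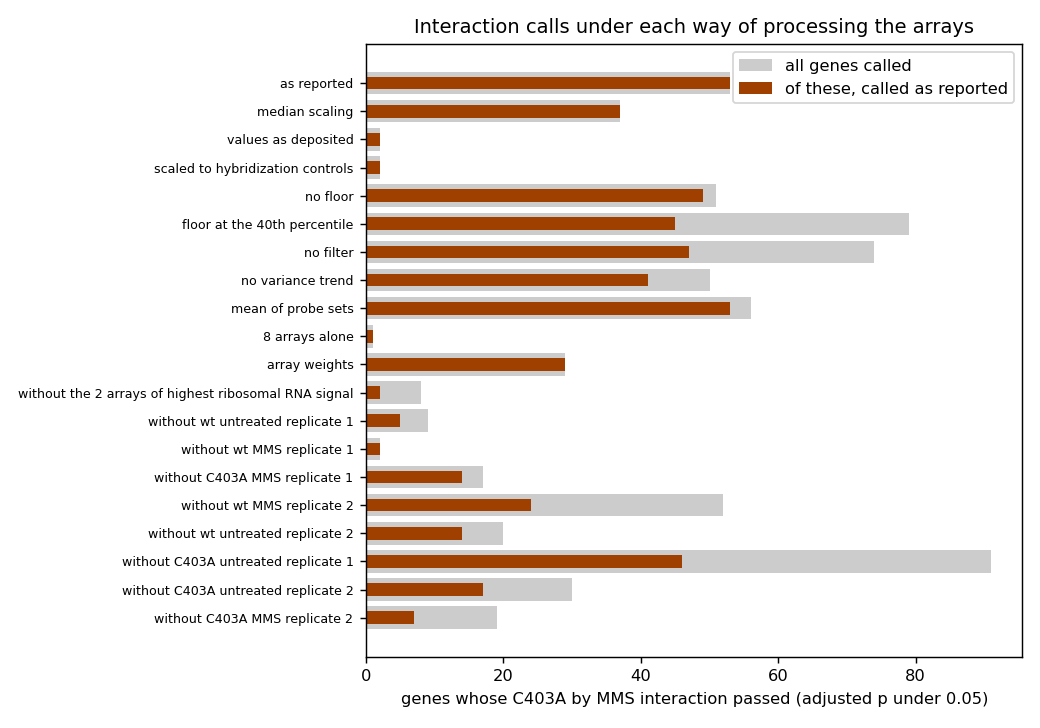
Number of genes whose interaction passed (grey bars, horizontal axis) in the reported fit and in each other way of processing or leaving out arrays, with those among the 53 in brown. The bars run from 1 gene with the 8 arrays alone to 91 genes without C403A untreated array 1.

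A comparison of response sizes that does not use these calls took the genes that passed in C406A, whose arrays are in neither response described. The 683 genes that rose in C406A had a median response of 0.57 in wild type and 0.34 in C403A, and the interaction was negative in 561 and positive in 122. The 603 genes that fell in C406A had medians of -0.45 and -0.28, and the interaction was positive in 441 and negative in 162. Over all tested genes the interaction was negative in 2910 and positive in 2458. Genes on the same arrays are not independent replicates, so these splits are a description. Among the 78 genes that rose at least 2-fold in C406A the medians were 1.53 and 0.84. In the test over all genes, 1770 passed in the wild-type response (33%), 1027 up (19.1%) and 743 down (13.8%), and 835 in the C403A response (15.6%), 452 up (8.42%) and 383 down (7.13%). These 2 counts share no arrays.

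**Figure D2:**
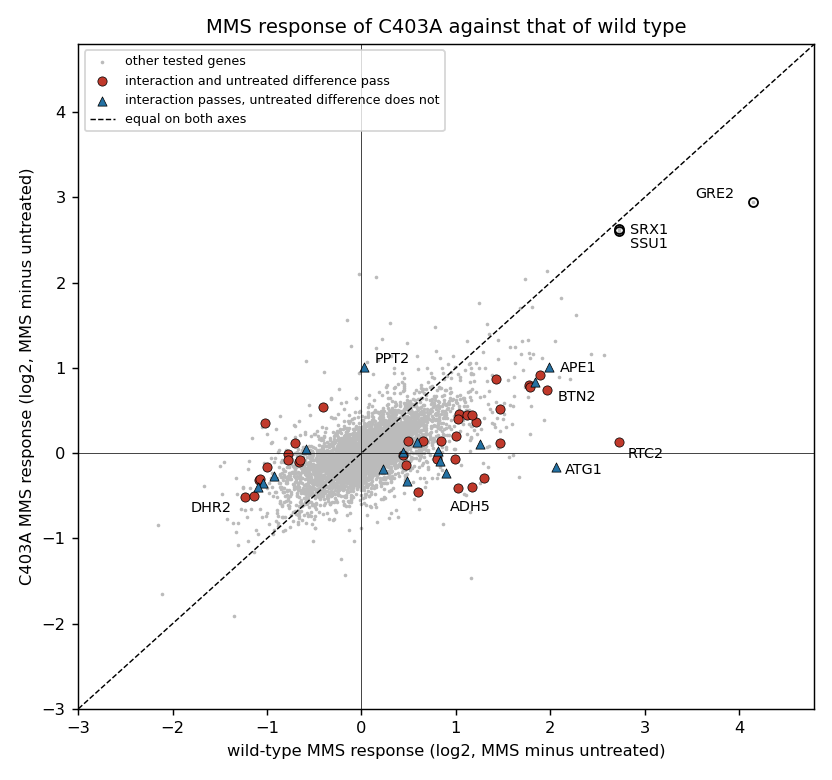
Each point is a gene, with its wild-type response to MMS on the horizontal axis and its C403A response on the vertical axis, both in log2 units, and the dashed line marks equal responses. The 53 genes that passed the interaction lie mostly between the dashed line and the horizontal line at 0, with PPT2 above the line, while SRX1 and SSU1 (open circles, not passing) lie close to it.

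The 53 genes fell into groups by what the strains showed before treatment. In 37 the untreated strains also differed, and in 16 the untreated difference did not pass. All 16 of the latter differed under MMS. Of the 37, 16 differed under MMS as well and 21 did not. The untreated difference and the interaction share 4 arrays with opposite sign, so a negative interaction beside a positive untreated difference is partly built in. The MMS-treated difference also shares 4 arrays with the interaction, with the same sign. A gene that passed the interaction without an untreated difference is thus nearly bound to differ under MMS. Nothing is read from the count of all 16. The untreated and MMS-treated differences share no array. Without both arrays of high ribosomal RNA signal the 2 classes held 7 and 1 genes.

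In the 21 of 37 whose treated difference did not pass, untreated C403A stood away from wild type in the direction of the wild-type MMS response. A called interaction beside a small treated difference nearly requires that direction. The untreated difference and the wild-type response also share the untreated wild-type arrays, with the same sign. Nothing is read from the shared direction, and the levels below are a description. RTC2 (YBR147W, chromosome II), which encodes a PQ-loop protein of the vacuolar membrane, had the most negative interaction. Its level was at the floor on both untreated wild-type arrays and 234 and 222 on the wild-type MMS arrays. In C403A it was already 151 and 189 untreated and 201 and 172 with MMS. Untreated C403A thus lay near both treated groups, and untreated wild type stood apart. The rise was at least 2.72 ± 0.14 in wild type (adjusted p = 4.33e-06, limma) and 0.14 ± 0.14 in C403A, which did not pass, and the interaction was -2.59 ± 0.20 or lower (adjusted p = 0.00118, limma). Because the arrays at the floor are equal, this spread can be understated. With the floor at the 40th percentile RTC2 gave -0.48 and lost the call (adjusted p = 0.178, limma). RTC2 is one of 3 called genes with a group wholly at the floor, named with ATR2 and YFR035C after their values were seen.

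YAP1801, an adaptor protein of clathrin-coated endocytic vesicles, measured 384 and 326 in untreated wild type and 693 and 710 with MMS, but 576 and 677 in untreated C403A and 594 and 596 with MMS. All treated levels of both strains lay between 594 and 710, and the untreated levels of the strains did not overlap. The interaction was -1.06 ± 0.15 (adjusted p = 0.0193, limma), with an untreated difference of 0.82 ± 0.10 (adjusted p = 0.00155) and a treated difference of -0.24 ± 0.10 (adjusted p = 0.167). YPS6, a GPI-anchored aspartyl protease of the yapsin family, showed the same arrangement at low levels, 50.2 and 59.0 in untreated wild type against 124 and 123 in untreated C403A. With MMS it was 140 and 162 in wild type and 135 and 133 in C403A, and the interaction was -1.35 ± 0.24 (adjusted p = 0.0373, limma). YPS6 lost the call in all 8 refits that left out an array, with values from -1.46 to -1.23.

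Among these 21 were the chaperone and ubiquitin genes described next, gathered after their values were seen. HSP78, the disaggregating chaperone of the mitochondrial matrix, was 554 and 605 in untreated wild type and 894 and 1076 in untreated C403A. With MMS it reached 1958 and 1998 in wild type and 1721 and 1703 in C403A, so that both strains rose but from different levels. The rise was 1.77 ± 0.09 in wild type and 0.80 ± 0.09 in C403A, an interaction of -0.97 ± 0.13 (adjusted p = 0.0193, limma). For UBI4, which encodes polyubiquitin, the levels were 1013 and 1102 in untreated wild type, 2825 and 2856 with MMS, 1688 and 1670 in untreated C403A and 3151 and 3000 with MMS. C403A was the higher strain on every pair of arrays, but by less under MMS, where the difference of 0.11 ± 0.06 did not pass (adjusted p = 0.223, limma). Its interaction was -0.55 ± 0.08 (adjusted p = 0.0218), between untreated differences of 0.67 ± 0.06 and responses of 1.43 ± 0.06 and 0.87 ± 0.06 in wild type and C403A.

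HSP82, one of a pair of Hsp90 chaperone genes, rose by 1.02 ± 0.06 in wild type and by 0.40 ± 0.06 in C403A, where its untreated levels were 3243 and 3365 against 2472 and 2444. BTN2, which encodes a factor that gathers misfolded proteins, was 334 and 386 in untreated wild type and 615 and 818 in untreated C403A, and with MMS 1347 and 1460 against 1233 and 1141. Treated C403A lay below treated wild type, but the difference of -0.24 ± 0.16 did not pass (adjusted p = 0.356, limma). Interactions were -0.62 ± 0.08 for HSP82 (adjusted p = 0.0193) and -1.22 ± 0.22 for BTN2 (adjusted p = 0.0381, limma). OPI10, the yeast relative of the nuclear import factor Hikeshi for heat shock proteins, rose from 78.4 and 70.2 to 243 and 268 in wild type and from 151 and 188 to 304 and 274 in C403A. Its untreated difference of 1.18 ± 0.14 passed and its treated difference of 0.18 ± 0.14 did not, and the interaction was -1.002 ± 0.19 (adjusted p = 0.0459, limma). With the floor at the 40th percentile OPI10 gave -0.0025 (adjusted p = 0.997, limma). The glycogen branching enzyme gene GLC3 was 197 and 228 in untreated wild type and 370 and 390 in untreated C403A, against 608 and 565 and 545 and 547 with MMS (interaction -0.94 ± 0.14, adjusted p = 0.0218, limma).

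RTA1 and YCR099C were also higher in untreated C403A. RTA1, a membrane protein of lipid-toxin resistance, was 60.4 and 64.0 in untreated wild type and rose to 90.2 and 98.1, but in C403A it fell from 111 and 121 to 86.4 and 82.8. Treated strains thus lay close together and untreated strains apart, with an interaction of -1.05 ± 0.18 (adjusted p = 0.0336, limma). YCR099C, an open reading frame with no assigned role, rose in wild type from 43.5 and 44.6 to 108 and 91.6, and in C403A it was 85.2 and 104 untreated and 74.4 and 68.6 with MMS, a response of -0.40 ± 0.15 that did not pass (interaction -1.57 ± 0.22, adjusted p = 0.0193, limma).

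In the 16 genes with no passing difference before treatment, the strains differed under MMS, as their selection nearly requires. APE1, the vacuolar aminopeptidase that travels by the cytoplasm-to-vacuole route of autophagy, started at 427 and 484 in wild type and 485 and 431 in C403A. With MMS it reached 1812 and 1796 in wild type but 1055 and 809 in C403A. Untreated levels overlapped and treated levels did not, with 1.99 ± 0.12 for the wild-type rise, 1.01 ± 0.12 for the C403A rise and -0.97 ± 0.17 for the interaction (adjusted p = 0.0343, limma). ATG1 (YGL180W, chromosome VII), the kinase that starts autophagy, was 73.0 and 51.3 in untreated wild type and 260 and 251 with MMS, against 94.9 and 103 in untreated C403A and 63.7 and 123 with MMS. The treated C403A arrays were far apart, yet both lay below both treated wild-type arrays. Its interaction was -2.22 ± 0.40 (adjusted p = 0.0372, limma) and ranged from -2.70 to -1.75 when 1 array was left out, with the call kept in 1 of 8 refits. With the floor at the 40th percentile ATG1 gave -0.79 (adjusted p = 0.0083, limma).

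RTK1, a putative protein kinase that associates with ribosomes, rose from 255 and 289 to 1003 and 946 in wild type and from 323 and 329 to 634 and 533 in C403A. The treated strains did not overlap, and the interaction was -1.01 ± 0.15 (adjusted p = 0.0218, limma). SPC42, a core protein of the spindle pole body, rose in wild type from 142 and 119 to 247 and 240. In C403A it was 159 and 186 untreated and 146 and 147 with MMS, a response of -0.23 ± 0.14 that did not pass (interaction -1.13 ± 0.20, adjusted p = 0.0336, limma). PPT2, which encodes the phosphopantetheine transferase that activates the mitochondrial acyl carrier protein, was the gene of stronger response. It stayed between 156 and 174 in wild type with and without MMS, and in C403A it rose from 202 and 170 to 381 and 367 (interaction 0.99 ± 0.18, adjusted p = 0.0381, limma). PGM2, the major phosphoglucomutase and a stress gene, behaved like APE1 but missed the threshold, with -1.21 ± 0.25 (adjusted p = 0.0604, limma). It passed in 1 of the other settings tried.

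In other genes the strain difference changed direction, passing one way before treatment and the other way under MMS. ADH5 (YBR145W, chromosome II), an alcohol dehydrogenase isozyme, was 927 and 916 in untreated wild type and 1090 and 1372 in untreated C403A. With MMS it was 1879 and 1853 in wild type and 963 and 880 in C403A. No pair of strain groups overlapped in either condition: C403A was the higher strain before MMS and the lower one under it. ADH5 rose by 1.02 ± 0.10 in wild type and fell by 0.41 ± 0.10 in C403A, an interaction of -1.43 ± 0.14 (adjusted p = 0.00433, limma). ECM27, a putative calcium exchanger, crossed in the same way near the floor, from 40.5 and 34.5 to 100 and 83.9 in wild type and from 60.7 and 71.5 to 65.6 and 44.1 in C403A (interaction -1.59 ± 0.29, adjusted p = 0.0381, limma). Crossing in the opposite direction were NOP16, SAS10, ALB1, RFU1, FAL1 and RPF2, all lower before MMS and higher under it. RPF2, a factor of large-subunit assembly named after its values were seen, had differences of -0.26 and 0.30 (adjusted p = 0.0191 and 0.0109, limma).

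**Figure D3:**
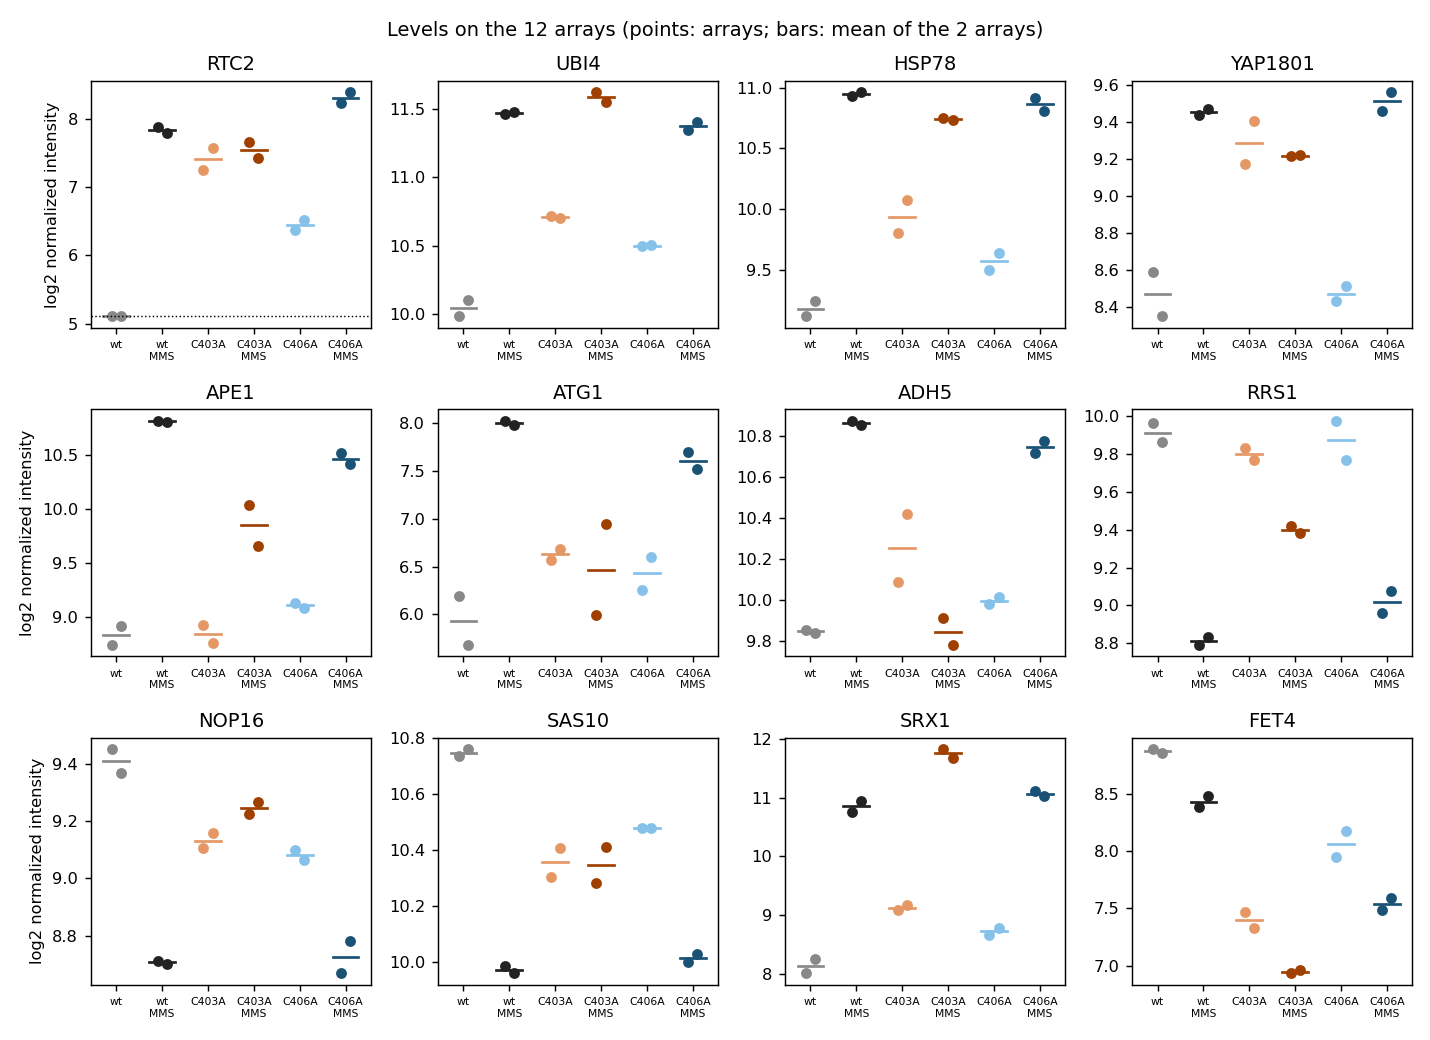
Log2 normalized intensity of 12 genes on the 12 arrays, with a point for each array and a bar for the mean of the 2 arrays of a group, and with a dotted line at the floor for RTC2. The strain difference passed before MMS alone for RTC2, UBI4, HSP78 and YAP1801, under MMS alone for APE1, ATG1 and RRS1, and in both conditions for the others, for ADH5, NOP16 and SAS10 in opposite directions and for SRX1 and FET4 in the same one.

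Genes with a role in ribosome assembly among the 17 higher ones are described together, a grouping made after their values were seen. NOP16, a factor of the large ribosomal subunit, was 699 and 661 in untreated wild type and fell to 419 and 417. In C403A it was 551 and 571 untreated and 598 and 616 with MMS, a response of 0.11 ± 0.07 that did not pass. C403A was thus below wild type before treatment and above it afterwards, without overlap (interaction 0.82 ± 0.10, adjusted p = 0.0171, limma).

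SAS10, a component of the small-subunit processome, fell from 1706 and 1736 to 1014 and 997 in wild type and was 1266 and 1359 in untreated C403A and 1245 and 1364 with MMS. Its C403A response was -0.01 ± 0.06, and its interaction of 0.77 ± 0.09 (adjusted p = 0.0138, limma) passed in 7 of 8 refits that left out an array. ALB1, a shuttling factor of the large subunit, also passed in 7 of 8, with 0.77 ± 0.09 (adjusted p = 0.0138). It fell in both strains, from 1510 and 1613 to 727 and 748 in wild type and from 1215 and 1199 to 936 and 1005 in C403A. Like NOP16, SAS10 and ALB1 began lower and ended higher in C403A than in wild type. Only ALB1 of these genes passed as falling in C403A.

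In other assembly factors the untreated difference did not pass and the treated one did, although the untreated levels of C403A again lay below those of wild type without overlap. RRS1, which brings the 5S ribonucleoprotein to the large subunit, fell from 997 and 930 to 443 and 457 in wild type and from 909 and 872 to 685 and 666 in C403A (interaction 0.70 ± 0.12, adjusted p = 0.0336, limma). BUD20, an export factor of the large subunit, and UTP23, a processome component, fell by 1.04 ± 0.07 and 0.93 ± 0.08 in wild type, and their interactions were 0.69 ± 0.10 and 0.66 ± 0.12 (adjusted p = 0.0218 and 0.0343, limma). In C403A BUD20 fell by 0.35 ± 0.07, and UTP23 gave -0.27 ± 0.08, which did not pass. Another arrangement was that of DHR2, a helicase of small-subunit maturation, and TRM2, a tRNA methyltransferase. Both were lower before treatment (-0.52 ± 0.08 and -0.46 ± 0.09) with treated differences of 0.20 ± 0.08 and 0.24 ± 0.09 that did not pass, and interactions of 0.72 ± 0.12 and 0.70 ± 0.12 (adjusted p = 0.0281 and 0.0336, limma).

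FAL1, a nucleolar RNA helicase, and RFU1, an inhibitor of the deubiquitinating enzyme Doa4, gave 0.84 ± 0.14 and 0.77 ± 0.13 (adjusted p = 0.0279 and 0.0336, limma). RFU1 and BUD20 are next to each other on their chromosome, and this was the only adjacent pair among the 53. MF(ALPHA)2, a gene for the alpha-factor pheromone, moved in opposite directions, from 313 and 353 to 253 and 248 in wild type and from 536 and 467 to 702 and 754 in C403A. Its levels in C403A lay above those of wild type in both conditions, by 0.59 ± 0.10 untreated and 1.54 ± 0.10 with MMS (interaction 0.95 ± 0.14, adjusted p = 0.0218, limma). Of the other MATalpha genes measured, STE3, MF(ALPHA)1 and SAG1, 0 passed the interaction, and at an unadjusted p under 0.05 MF(ALPHA)2 was again the only gene of that list (limma).

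Most genes that differed between the untreated strains responded alike or could not be told to respond differently. The untreated difference passed for 759 genes (14.1%), 492 higher (9.17%) and 267 lower (4.97%) in C403A, and the treated difference for 728 (13.6%), 401 higher (7.47%) and 327 lower (6.09%). For 399 of the 759 genes the interaction did not pass and its 95% interval lay within 1.5-fold either way, so the response difference was bounded. In 235 of these 399 the strains also differed under MMS. The bound on the interaction uses the treated arrays and nearly fixes the direction of that difference, so nothing is read from it. For 323 genes the interval was wider, and nothing is settled on their response. Without both arrays of high ribosomal RNA signal the untreated difference passed for 200 genes, 91 bounded and 102 not bounded.

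SSL1, the gene of the TFIIH subunit that carries the substitutions, and SSK1 beside it were the highest of the bounded shifts. SSL1 was 1734 and 1697 in untreated wild type, 1757 and 1607 with MMS, 4840 and 5021 in untreated C403A and 4939 and 5117 with MMS. The strains stood the same distance apart in both conditions, and the interaction of 0.06 ± 0.11 had a 95% interval from -0.20 to 0.31. SSK1, the response regulator of the osmosensing pathway, had an interaction of -0.14 ± 0.10 (95% interval -0.37 to 0.09), and LEU2, a leucine synthesis gene and common plasmid marker, had -0.15 ± 0.09 (-0.35 to 0.06).

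SRX1, the sulfiredoxin gene, shows a shift laid over a large response. It was 257 and 303 in untreated wild type, 1740 and 1981 with MMS, 542 and 573 in untreated C403A and 3636 and 3291 with MMS. C403A was about as far above wild type before MMS (0.998 ± 0.10) as under it (0.90 ± 0.10), and both strains rose, by 2.73 ± 0.10 and 2.63 ± 0.10 (interaction -0.10 ± 0.14, 95% interval -0.42 to 0.22). FET4, a low-affinity iron and copper transporter, was the mirror case, at 476 and 466 in untreated wild type, 335 and 358 with MMS, 177 and 161 in untreated C403A and 122 and 125 with MMS. It fell with MMS in both strains, by 0.44 ± 0.11 and 0.45 ± 0.11, and stood lower in C403A by 1.48 ± 0.11 untreated and 1.49 ± 0.11 with MMS.

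Other bounded shifts upward were PLN1, a lipid droplet protein (1.11 ± 0.11 untreated, 1.10 ± 0.11 with MMS), NFG1, a negative regulator of filamentous growth (1.10 ± 0.08 and 1.02 ± 0.08), and EMC1, a subunit of the membrane protein complex of the endoplasmic reticulum (1.002 ± 0.12 and 0.81 ± 0.12). Downward they were AGA1, the anchor of the mating agglutinin (-1.21 ± 0.12 and -1.20 ± 0.12), and FCY21, a purine-cytosine permease homologue (-1.12 ± 0.12 and -1.16 ± 0.12). SPL2, a regulator of phosphate uptake, SUN4, a cell wall protein of septation, and DSE1, a daughter-cell gene, stood lower by 0.98 ± 0.09, 0.87 ± 0.08 and 0.87 ± 0.10 before MMS, and under MMS their differences were -0.89 ± 0.09, -0.92 ± 0.08 and -0.98 ± 0.10. All of these differences passed with adjusted p of at most 0.00352 (limma). Across these 12 untreated differences and 19 other settings, 1 call was lost, that of DSE1 with the values as deposited (adjusted p = 0.101, limma).

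**Figure D4:**
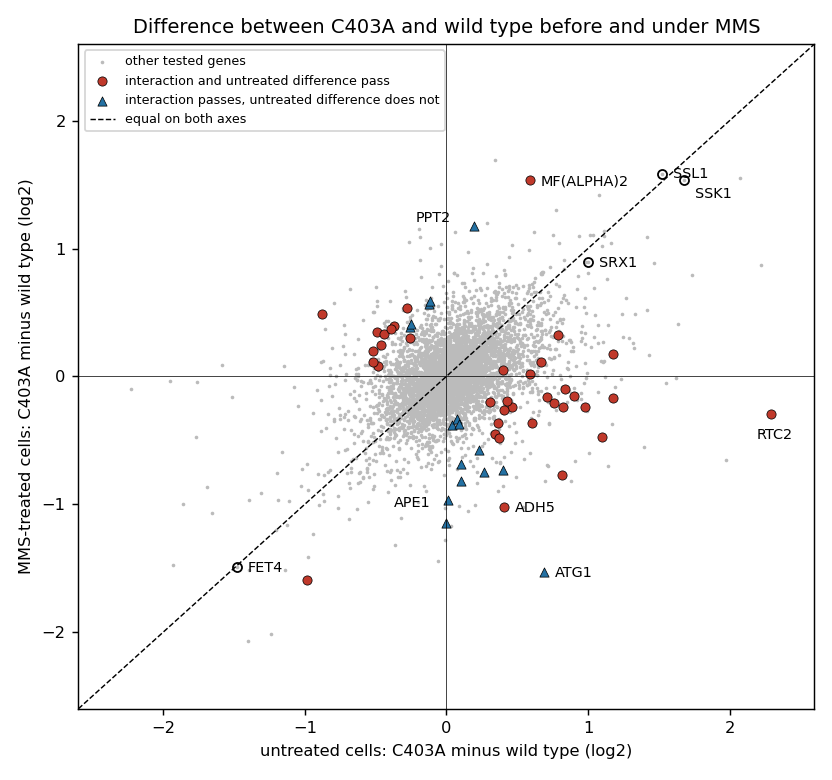
Each point is a gene, with the difference between C403A and wild type in untreated cells on the horizontal axis and in MMS-treated cells on the vertical axis, both in log2 units and from separate arrays. SSL1, SSK1, SRX1 and FET4 (open circles) lie near the dashed line of equal differences, RTC2 lies far along the horizontal axis, and ATG1, APE1 and ADH5 lie far below it.

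Of 15 targets of the DNA damage checkpoint measured, 0 passed the interaction (0.987% of all genes), 2 were lower at an unadjusted p under 0.05 (871 of all 5368 genes, limma), and the median interaction was -0.18 against -0.03. At these shares of all genes a count of 0 is no result about the list. In wild type 14 rose and 1 fell, with a median response of 0.85, and in C403A 12 rose, with a median of 0.72. The shares of all genes that rose were 19.1% in wild type and 8.42% in C403A. HUG1, a small inhibitor of ribonucleotide reductase, rose from 72.4 and 66.6 to 264 and 202 in wild type and from 60.4 and 52.8 to 243 and 224 in C403A. The strains overlapped under MMS, and the interaction of 0.31 ± 0.33 had a 95% interval from -0.42 to 1.04, which leaves out only large differences. MAG1, the DNA glycosylase of alkylated bases, gave -0.32 ± 0.19 (-0.74 to 0.10), RAD54, a recombination ATPase, -0.15 ± 0.18 (-0.56 to 0.26), and DDI1, a shuttle factor to the proteasome, -0.17 ± 0.12 (-0.44 to 0.11).

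Among ribonucleotide reductase genes, RNR4 gave -0.10 ± 0.06 (-0.25 to 0.04) and RNR3, which was at the floor in both untreated strains, gave -0.29 ± 0.27 and has no exact response. RNR2, a small-subunit gene, rose from 3218 and 3147 to 4939 and 5014 in wild type and from 3183 and 3249 to 4284 and 4100 in C403A. The treated strains did not overlap (-0.25 ± 0.05, adjusted p = 0.0133), and the interaction was -0.26 ± 0.07 with a 95% interval from -0.43 to -0.10 that is not adjusted for the number of genes (adjusted p = 0.115, limma). Of 35 proteasome genes 0 passed the interaction and 4 were lower at an unadjusted p under 0.05 (limma), again near the shares of all genes. In wild type 33 rose (median 0.52) and in C403A 31 (median 0.47), against 19.1% and 8.42% of all genes.

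SSU1, YHB1 and GRE2, induced genes of other pathways, did not pass the interaction. SSU1, the sulfite pump gene, gave -0.12 ± 0.14 (-0.44 to 0.19) and YHB1, the flavohaemoglobin gene, 0.17 ± 0.17 (-0.20 to 0.54), with 1 of the 3 other YHB1 probe sets of opposite sign. GRE2, a methylglyoxal reductase gene, had untreated levels of 99.7 and 34.5 in wild type and 60.3 and 130 in C403A and so an interaction of -1.20 ± 0.69 (-2.74 to 0.35). Falls of ERG5, an ergosterol synthesis gene, and of CLB2, the mitotic cyclin gene, differed by -0.03 ± 0.16 and 0.27 ± 0.19, neither of which passed.

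General stress genes under Msn2 and Msn4 were the list with most calls. Of 33 measured, 5 were lower in the interaction (UBI4, GLC3, TPS2, GSY2 and YGP1) and 0 were higher, against 0.671% of all genes lower. At an unadjusted p under 0.05, 29 were lower and 0 higher (limma), against 871 of all 5368 genes in either direction. Of the 33 values 32 were negative, and the median was -0.60 against -0.03 over all genes. In wild type 30 rose, with a median of 0.999, and in C403A 17, with a median of 0.39. The shares of all genes that rose were 19.1% in wild type and 8.42% in C403A, so fewer calls in C403A are not particular to this list. Before MMS 10 were higher in C403A (median 0.25), and under MMS 1 was higher and 12 were lower (median -0.38), against 9.17% of all genes higher before MMS and 6.09% lower under it. The untreated median was -0.09 with arrays scaled to hybridization controls, where the median of all genes also shifted to -0.23. Without both arrays of high ribosomal RNA signal, 0 members passed the interaction (median -0.54), 4 were higher before MMS and 15 were lower under it.

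Within this list the members divided by when the strains differed. The trehalose phosphatase gene TPS2 and the glycogen synthase gene GSY2 crossed, with untreated differences of 0.37 ± 0.10 and 0.34 ± 0.09 and treated differences of -0.48 ± 0.10 and -0.45 ± 0.09. YGP1, a secreted glycoprotein of nutrient limitation, was higher in C403A in both conditions, by 0.79 ± 0.05 and 0.32 ± 0.05. HSP42, a small heat shock protein gene of this list and of the chaperone list, was 465 and 542 in untreated wild type and 2856 and 2575 with MMS, against 896 and 1462 in untreated C403A and 2804 and 2348 with MMS. Treated levels overlapped, and the interaction of -1.27 ± 0.36 did not pass (adjusted p = 0.125, limma).

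Of 20 chaperone genes listed under the heat shock factor Hsf1, 3 were lower in the interaction, against 0.671% of all genes. They were BTN2, HSP82 and the mitochondrial HSP78. At an unadjusted p under 0.05, 11 were lower (limma), against 871 of all 5368 genes in either direction. The median was -0.26. Before MMS 8 were higher and 1 lower in C403A, against 9.17% and 4.97% of all genes (median 0.19, but -0.04 with arrays scaled to hybridization controls), and under MMS 3 were lower, against 6.09% of all genes (median -0.12). Without both arrays of high ribosomal RNA signal 0 passed the interaction and 2 were higher before MMS. Of 35 amino acid synthesis genes under Gcn4, 0 passed the interaction, which at 0.987% of all genes is no result about the list. At an unadjusted p under 0.05, 15 were lower and 1 higher (limma), beside the same 871 of 5368 genes. The median was -0.21. Under MMS 16 were lower in C403A (median -0.19, with 6.09% of all genes lower). Before it 2 were higher and 3 lower, which is near the 9.17% and 4.97% of all genes.

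Ribosome assembly and rRNA processing genes gave the opposite picture. Of the 47 on the list, 1 passed, RRP9, a U3 ribonucleoprotein subunit (0.57 ± 0.11, adjusted p = 0.0459, limma), against 0.317% of all genes higher. The list leaves out the other called genes of this role. By role, assigned after the values were seen, 11 of the 17 higher genes take part in ribosome assembly. Roles were assigned to called genes only, so the share of all tested genes with this role is not known. Nothing is read from the count of 11. At an unadjusted p under 0.05, 28 of the 47 were higher and 0 lower (limma), against 871 of all 5368 genes in either direction. Of the 47 values 46 were positive, with a median of 0.33. In wild type 45 fell (median -0.56) and in C403A 18 fell (median -0.23, but 0.05 with the values as deposited, where the median of all genes was 0.28). The shares of all genes that fell were 13.8% in wild type and 7.13% in C403A, so calls were fewer in C403A over all genes too. Before MMS 16 were lower in C403A (median -0.25, with 4.97% of all genes lower), and under MMS 5 were higher, against 7.47% of all genes (median 0.11, but -0.15 with arrays scaled to hybridization controls). Leaving out both arrays of high ribosomal RNA signal left 0 calls in the interaction, 3 lower before MMS and 8 higher under it. NOG1, a GTPase of large-subunit assembly, gave 0.56 ± 0.16 (adjusted p = 0.125, limma).

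Genes of the respiratory chain and ATP synthase were shifted before and under MMS by like amounts. Of 40 measured, 29 were higher and 1 lower in untreated C403A (median 0.39), and 30 were higher and 1 lower under MMS (median 0.37). The shares of all genes higher were 9.17% and 7.47%. Of these genes 26 were bounded shifts. In the interaction 0 passed, and 2 were higher and 4 lower at an unadjusted p under 0.05 (limma). Both counts were near the shares of all genes, 0.987% and 871 of 5368. The median interaction was -0.02. Without both arrays of high ribosomal RNA signal 10 were higher before MMS and 30 under it.

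G2-M genes of the CLB2 cluster were also higher in C403A in both conditions, 7 of 17 untreated (median 0.29) and 8 with MMS (median 0.38). Pheromone-induced mating genes were lower in both, 10 of 28 untreated (median -0.33) and 11 with MMS (median -0.25), as were daughter-cell genes of M-G1, with 9 of 20 lower untreated and 8 with MMS. Of all genes 9.17% were higher and 4.97% lower untreated, and 7.47% and 6.09% with MMS. Leaving out both arrays of high ribosomal RNA signal gave 2 higher G2-M, 5 lower mating and 6 lower M-G1 genes untreated, and 10, 10 and 8 with MMS. In these 3 lists 0 members passed the interaction, and 1, 2 and 3 had an unadjusted p under 0.05 (limma). Of all genes 0.987% passed and 871 of 5368 had such a p, so these counts are no result about the lists. Of all 53 called genes, 10 belong to any of the lists used and 43 to none.

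**Figure D5:**
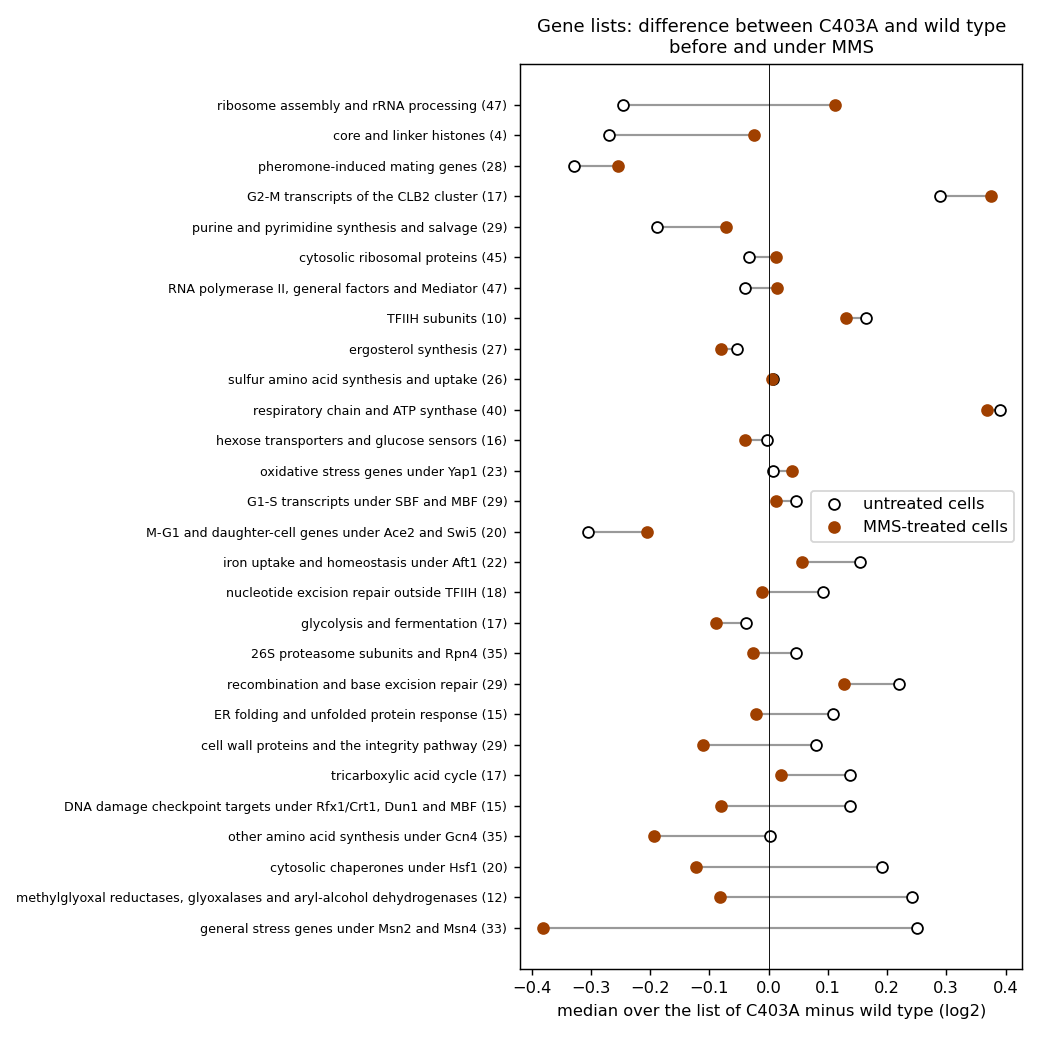
Median difference between C403A and wild type over each gene list (number of tested genes in brackets), in log2 units, before MMS (open circles) and under MMS (brown circles). General stress genes go from 0.25 to -0.38 and ribosome assembly genes from -0.25 to 0.11, while respiratory genes stay at 0.39 and 0.37. The list labelled cytosolic chaperones also holds the mitochondrial HSP78.

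The other TFIIH mutant served to ask whether the C403A responses differed from those of C406A, with no wild-type array in the test. This difference passed for 6 genes (0.112%), and for 572 at an unadjusted p under 0.05 (limma). Of these 6, RTC2, ADH5, YAP1801 and UTP23 were among the 53, with the same sign. RTC2 rose in C406A from 82.4 and 91.2 to 299 and 334, and the C403A response was lower by 1.73 ± 0.20 (adjusted p = 0.0259, limma). Untreated RTC2 in C406A lay between the floor in wild type and the level in C403A. ADH5 rose in C406A from 1009 and 1034 to 1686 and 1755, with a difference of -1.16 ± 0.14 (adjusted p = 0.0259), and YAP1801 from 345 and 365 to 704 and 755, with a difference of -1.11 ± 0.15 (adjusted p = 0.0298, limma). Treated ADH5 in C406A thus lay closer to wild type than to C403A, and both treated YAP1801 levels of C406A lay above the 594 and 596 of C403A. UTP23 fell in C406A from 1807 and 1800 to 756 and 906, a difference of 0.85 ± 0.12 (adjusted p = 0.0298, limma).

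The other 2 genes were SNZ1, of vitamin B6 synthesis (-0.80), and RBG1, a GTPase gene (0.45), whose interactions with wild type did not pass (adjusted p = 0.251 and 0.279, limma). For the remaining 49 of the 53, a difference between the mutants was not shown, which does not show that they respond alike. ATG1, for example, gave -1.34 ± 0.40 (adjusted p = 0.298) and HSP78 -0.49 ± 0.13 (adjusted p = 0.267, limma). The count of 6 ran from 0 to 21 when 1 of the 8 wild-type and C403A arrays was left out. It was 64 without C406A MMS array 1, 1 without C406A MMS array 2 and 0 without either untreated C406A array.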

How the data were processed

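The deposited table holds the intensity of 9335 probe sets on each of 12 arrays, a linear one-colour signal per the file headers, and 8.95% of its values were negative. The sources used here do not give how the authors summarised or scaled them. Array medians differed by a factor of 1.686. Arrays were therefore quantile-normalized without the 60 control probe sets, raised to a floor at the 20th percentile and put on a log2 scale. Platform annotation named 1 gene for 6504 probe sets, several for 328 and none for 2503. The first kind was used, with symbols from a RefSeq gene table, and gave 5656 genes. Where a gene had several probe sets (315 genes), its brightest one stood for it. A further 288 genes, above the floor on fewer than 2 arrays, were not tested.

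Means of the 6 groups were estimated in limma 3.58.1 (R 4.3.3) from all 12 arrays together, by lmFit and by eBayes with trend, with 6 residual and 3.53 prior degrees of freedom. The scripts were tested on simulated data first. Array numbers 1 and 2 follow the listing and pair nothing. No batch could be tested, since each scan is 1 array and all are of 1 chip lot. The members and lists were chosen with earlier results of these data known. Genes named were the 12 largest interactions each way among those that passed with no group wholly at the floor, the 6 largest bounded shifts each way, the 6 largest interactions each way among shifted genes, up to 2 members of a list with 3 or more calls, and 20 genes always. Genes named beyond these were chosen after their values were seen. Alternatives were median scaling, the values as deposited, scaling to hybridization controls, other floors and filters, no trend, means of probe sets, the 8 arrays alone, array weights and leaving out each wild-type and C403A array. A fit without the 2 arrays whose ribosomal RNA signal was highest was added after seeing the data, as was leaving out each C406A array for the difference between the mutants. Figures were drawn with matplotlib 3.10.9.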

Additional observations from a re-analysis of the deposited data

Results flagged for a closer look

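The 31 genes, named by the rule or held at the floor, whose MMS response differed between C403A and wild type by the limma test of the difference itself (adjusted p under 0.05) are listed with that difference, C403A minus wild type, on the log2 scale. The response was lower in C403A for RTC2 (-2.59, a bound), ATG1 (-2.22), ECM27 (-1.59), YCR099C (-1.57), ADH5 (-1.43), YPS6 (-1.35), BTN2 (-1.22), ATR2 (-1.15), SPC42 (-1.13), YAP1801 (-1.06), RTA1 (-1.05), RTK1 (-1.01), OPI10 (-1.002), APE1 (-0.97), HSP78 (-0.97), GLC3 (-0.94), HSP82 (-0.62) and UBI4 (-0.55). It was higher for UTP23 (0.66), BUD20 (0.69), RRS1 (0.70), TRM2 (0.70), DHR2 (0.72), ALB1 (0.77), SAS10 (0.77), RFU1 (0.77), NOP16 (0.82), FAL1 (0.84), MF(ALPHA)2 (0.95), PPT2 (0.99) and YFR035C (1.37). ATR2, a transporter gene, was at the floor in both untreated strains, and YFR035C, with no assigned role, was at the floor on both wild-type MMS arrays, so both values are inexact. Except for RTC2 and ADH5, each of these calls was lost when wild-type MMS array 1 was left out.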

How the results depend on the processing

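Directions of the 53 interactions were stable, which their selection on these same arrays favours, and their calls were not. All 53 kept their sign in every other setting that tested them, except ATR2 without a floor (0.46), and 6 were not tested with the floor at the 40th percentile. The causes of the changes in count were not tested. No paired analysis was possible because the labels give no replicate numbers. As deposited, 2 genes passed the interaction (0 higher, 2 lower, 2 weaker in C403A; 1 shifted before and 1 not), with 97 untreated and 78 treated differences, 795 wild-type and 367 C403A responses, 2 differences between the mutants and 9 bounded and 87 unbounded shifts. Scaled to hybridization controls the interaction gave 2 (0 higher, 2 lower, 2 weaker; 1 shifted and 1 not), beside 334 untreated differences, 821 and 211 responses in wild type and C403A and 56 bounded shifts. The 8 arrays alone gave 1 (0 higher, 1 lower, 1 weaker; 1 shifted and 0 not). Array weights gave 29 (10 higher, 19 lower, 26 weaker; 22 shifted and 7 not), with 425 untreated differences and 227 bounded and 176 unbounded shifts. Without both arrays of high ribosomal RNA signal the interaction gave 8 (5 higher, 3 lower, 3 weaker; 7 shifted and 1 not), with 200 untreated differences and 91 bounded and 102 unbounded shifts. Median scaling left 24 shifted genes among 37 calls. With the floor at the 40th percentile 33 were higher, 34 not shifted, 197 unbounded and 18 different between the mutants. That last count was 15 and the count of higher genes 28 with no filter, and it was 1 without the variance trend and 14 with means of probe sets. Genes up in C406A had a median interaction of -0.14 as deposited, -0.17 with the higher floor and -0.16 without the arrays of high ribosomal RNA signal, and genes down in C406A 0.19 as deposited. Leaving out 1 of the wild-type and C403A arrays gave 2 to 91 interactions (0 to 37 higher, 2 to 54 lower, 1 to 74 weaker; 2 to 66 shifted and 0 to 25 not), 365 to 798 untreated and 316 to 828 treated differences, 1171 to 1879 and 330 to 794 responses in wild type and C403A, 0 to 64 differences between the mutants (C406A arrays left out for this count alone), 173 to 357 bounded and 177 to 375 unbounded shifts, and medians of -0.24 to -0.18 for genes up in C406A and 0.12 to 0.18 for genes down. Interactions of all named genes and untreated differences of the named bounded shifts were counted together over all settings. Of these values 1031 kept their side of the threshold, and 39 of the 1031, in 16 genes that pass in neither setting, changed sign. A further 309 lost the call, among them the untreated difference of DSE1 as deposited, and 1, PGM2, gained it.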
